A study of Mus musculus with 12 samples.

Results

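Dcx, Stmn2, Stmn3, Tubb3, Tubb2a, Map2, Sox4, Sox11, Elavl3 and Elavl4 are genes that neuroblasts and young neurons switch on, and they were followed here in neural stem cells (NSCs) grown at 3 doses of folic acid. The 10 genes were chosen by symbol, as known genes of these cells and with earlier results of these data in view, from the 43432 gene identifiers listed for every library, and each symbol matched 1 identifier. The NSCs came from the subventricular zone, the niche beside the lateral ventricles, of male WT C57BL/6 mice of 6 to 8 weeks. They were kept as a monolayer with EGF and bFGF, the growth factors that hold NSCs in proliferation, for 4 days. The study's methods give the dose of folic acid as 1.5 µM for LF, as 10 µM for MF and as 80 µM for HF, and MF was the dose against which LF and HF were set. At each dose, polysome mRNA (mRNA that sediments with several ribosomes in a sucrose gradient, after cycloheximide had stalled translation) and total mRNA were sequenced from biological duplicates, which gave 12 libraries in 6 groups of 2. The labels do not say that duplicates came from separate animals or cultures, so the tests measure the spread between these libraries only.

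When a neural stem cell commits to a neuronal fate, proneural transcription factors are followed by Sox4 and Sox11, SoxC factors that open the neuronal programme, and then by proteins that reshape the cytoskeleton for migration and for the growth of neurites. Doublecortin (Dcx) and Map2 bind and stabilise microtubules, the stathmins Stmn2 and Stmn3 bind free tubulin and loosen them, and Tubb3 and Tubb2a are β-tubulins, the building blocks themselves. Elavl3 and Elavl4, also called HuC and HuD, are RNA-binding proteins of neurons that stabilise AU-rich mRNAs. An mRNA on polysomes is taken to be under translation, so the ratio of its polysome to its total level is used as a measure of translation efficiency (TE).

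The 12 libraries held between 24193454 and 28170297 counts in polysome mRNA and between 20506783 and 23593231 counts in total mRNA. The stem cell markers Nes (57.7 to 156 TPM in polysome mRNA and 357 to 469 TPM in total mRNA) and Sox2 (68.7 to 139 and 100 to 115 TPM) were present, where TPM is a level per length of transcript, scaled to the same sum in every library. Gfap, an astrocyte marker that adult subventricular stem cells also carry, stayed between 0.51 and 1 TPM in polysome and between 0.34 and 0.64 TPM in total mRNA. Rbfox3, which marks mature neurons, did not exceed 0.1 TPM in polysome or 0.06 TPM in total mRNA. Neither gene stands for its list. The 18 genes of mature neurons summed to 92.7 to 103 TPM in total mRNA, with Vamp2 (66.2 to 75.6 TPM) the largest. Of the stem cell and astrocyte genes, Aldoc (260 to 311 TPM) and Slc1a3 (176 to 217 TPM) were high in total mRNA. Aqp4 (0.45 to 0.88 TPM) and S100b (0.17 to 0.38 TPM) were low there. The second LF polysome library stood apart from the first: 14.3% of genes differed more than 2-fold between them, against 0.298% to 0.784% in the other 5 pairs of duplicates, and 6 of the 10 genes differed more than 1.5-fold, against 0 in the other pairs. Results that rest on the LF polysome libraries are therefore also given with either of them left out. In such bulk samples, fewer cells of a type and less RNA per cell cannot be told apart.

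Per length, Tubb2a was the most abundant of the 10 mRNAs in both fractions. Its level averaged 148 ± 48.4 TPM in polysome mRNA and 216 ± 31.5 TPM in total mRNA (SD, n = 6 libraries of each, over the 3 doses). In total mRNA it was followed by Map2 (125 ± 5.46 TPM), Sox4 (74.5 ± 2.56 TPM), Tubb3 (32.2 ± 2.6 TPM), Sox11 (27.7 ± 1.44 TPM) and Stmn3 (25.8 ± 1.81 TPM). The ranges of Tubb3, Sox11 and Stmn3 overlapped from one neighbour to the next, while Tubb2a, Map2, Sox4 and Tubb3 were apart from each other. Far below came Elavl3 (3.64 ± 0.237 TPM), Dcx (3.19 ± 0.529 TPM) and Stmn2 (2.18 ± 1.23 TPM), whose ranges overlapped, and then Elavl4, with 0.408 ± 0.29 TPM. Elavl4 had only 7 to 14 counts per total library and 4 to 15 per polysome library, so its values carry the largest counting error.

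The order was another in polysome mRNA. Tubb3 (46 ± 21.9 TPM) and Stmn3 (40.9 ± 13.2 TPM) came after Tubb2a, then Sox11 (25.9 ± 5.44 TPM), Map2 (19 ± 6.09 TPM) and Sox4 (13.6 ± 3.15 TPM), each with a range that overlapped the next (SD, n = 6). Stmn2 (3.18 ± 0.758 TPM) was apart from both its neighbours, Elavl3 (0.872 ± 0.326 TPM) overlapped Dcx (0.735 ± 0.288 TPM), and Elavl4 was last with 0.107 ± 0.0631 TPM. The plot of CPM, the counts scaled to each library's TMM-adjusted total and not divided by length, shows all libraries.

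**Figure D1:**
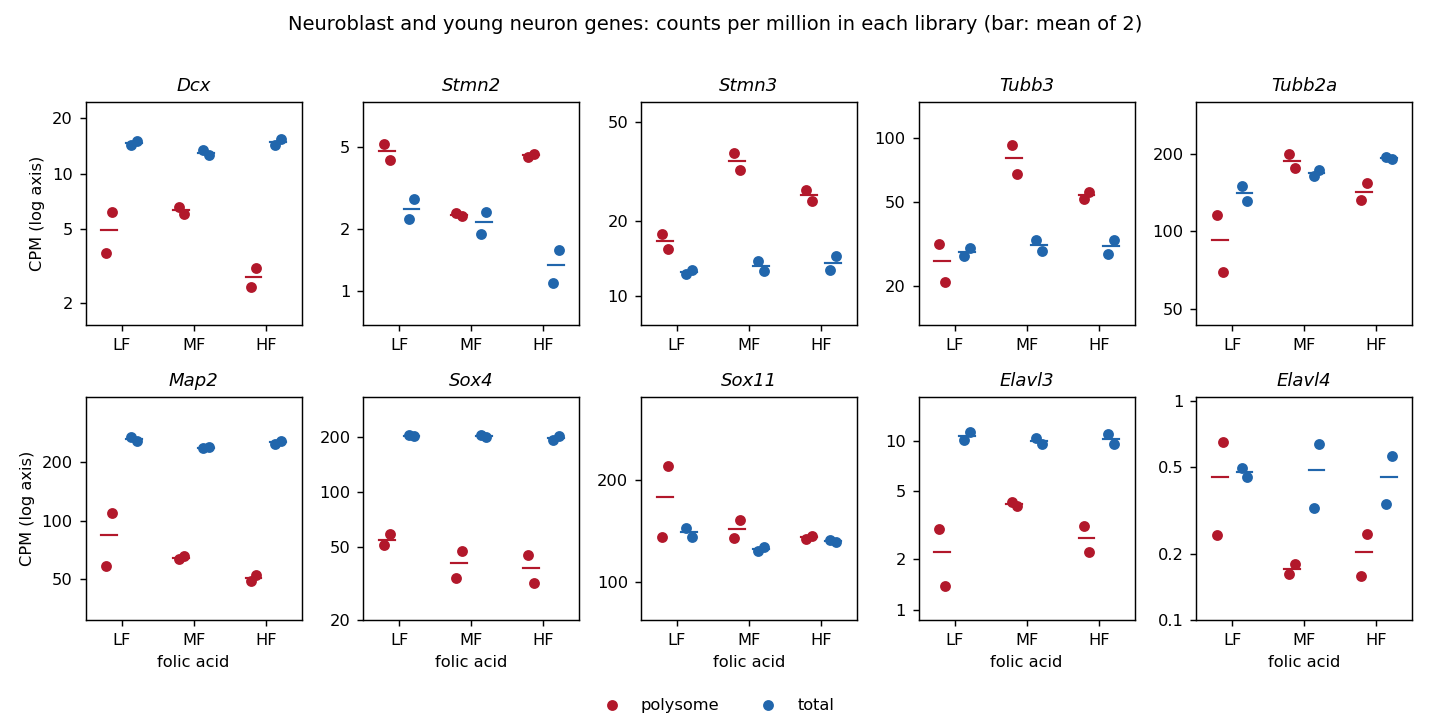
CPM (scaled counts) of the 10 genes in each library, on log axes, by dose of folic acid, with polysome libraries in red to the left of total libraries in blue; each point is 1 library and each bar the mean of 2. Dcx, Map2, Sox4 and Elavl3 lie lower in polysome than in total mRNA at every dose, Stmn3 higher, and Tubb3 is highest at MF in polysome mRNA (93.4 and 67.6 CPM).

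In most of these families a relative was far more abundant than the genes followed here. The Dcx relatives Dclk1 and Dclk2, which couple a doublecortin domain to a kinase, had 8.18 ± 2.06 and 11.2 ± 3.51 TPM in polysome mRNA and 27 ± 2.42 and 37.2 ± 1.31 TPM in total mRNA. Stmn1, the stathmin of dividing cells, stood between 743 and 1520 TPM in polysome mRNA and between 1030 and 1120 TPM in total mRNA, while neuronal Stmn4 did not exceed 2.09 TPM. Tubb5, the most abundant β-tubulin of those set beside Tubb3, reached 801 ± 177 TPM in polysome and 1090 ± 29.1 TPM in total mRNA, and Tubb2b 262 ± 79 and 424 ± 40.5 TPM. Map1b, a microtubule-binding protein of growing axons, had 12.2 ± 3.31 TPM in polysome and 52.9 ± 1.63 TPM in total mRNA, lower than Map2 in total mRNA. Mapt, which encodes tau of axons, had 0.627 ± 0.148 and 0.84 ± 0.276 TPM. Map4, another relative of Map2, had 91.8 ± 12.6 TPM in polysome and 127 ± 15.5 TPM in total mRNA. Sox12, the other SoxC factor, was below both Sox4 and Sox11, with 7.85 ± 1.82 TPM in polysome and 10.5 ± 0.239 TPM in total mRNA. Elavl1, the family member found in all tissues, had 54.4 ± 8.54 and 37.3 ± 1.36 TPM, and Elavl2 0.475 ± 0.343 and 1.51 ± 0.986 TPM (SD, n = 6 throughout).

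**Figure D2:**
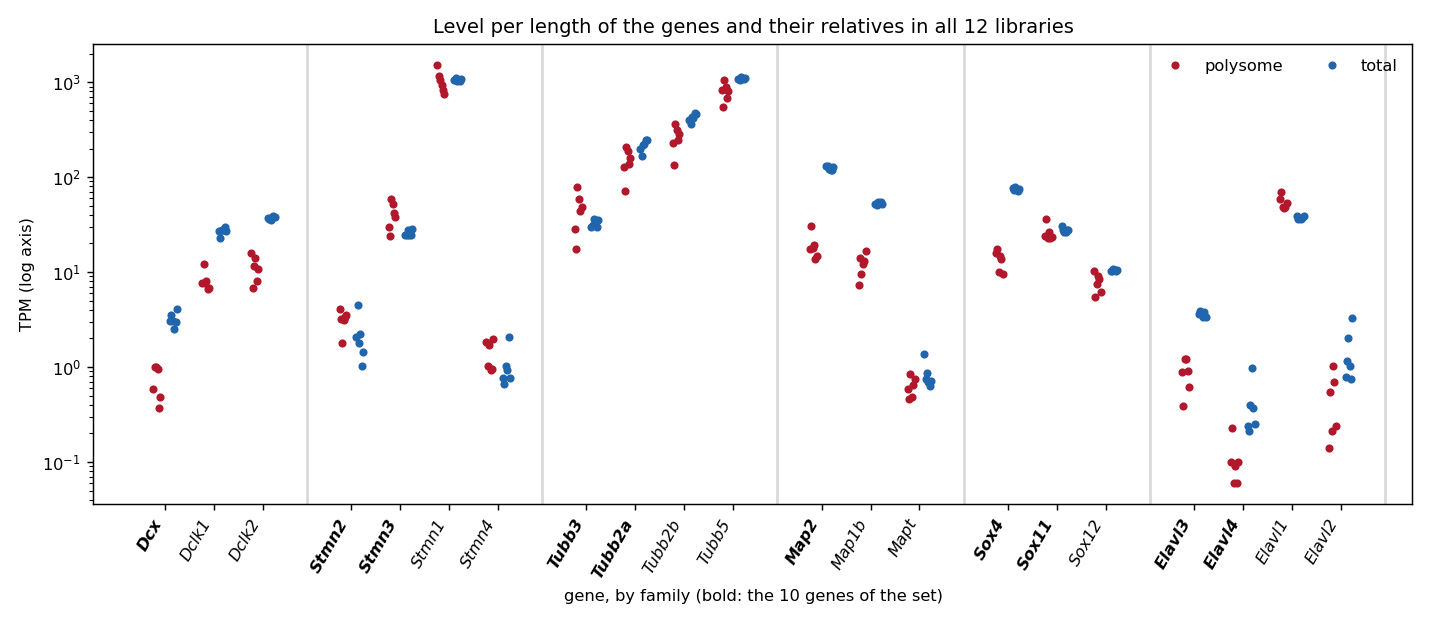
TPM on a log axis of the 10 genes (bold) and their relatives in all 12 libraries, polysome libraries in red to the left of total libraries in blue, 1 point per library. Stmn1 and Tubb5 lie at or above 743 and 543 TPM in every library, while the 10 genes stay at or below 248 TPM.

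Since RSEM, the program that made the counts, divides read pairs that fit several genes, near-identical copies matter here. The coding sequences of Tubb2a and Tubb2b (1338 bases each) were identical at 96.5% of aligned bases, with an identical run of 551 bases, so the counts of Tubb2a and Tubb2b are uncertain to that extent. Tubb2a and Tubb3 were identical at 84.2%, with no identical run over 45 bases, Sox4 and Sox11 at 68.7%, Stmn2 and Stmn3 at 73.5%, and Elavl3 and Elavl4 at 77.9%. The β-tubulins differ most at their 3′ coding end, which writes the acidic tail of the protein, and the last 30 coding bases before the stop codon are shown for that reason, 5′ to 3′ as transcribed, from GENCODE M21 transcripts on GRCm38 (mm10). Capitals mark bases that differ from Tubb2a (in Tubb2a, from Tubb2b) at the same distance from the stop codon, without alignment. They lie at chr8:123421650-123421679 (plus strand) for Tubb3 and, on the minus strand, at chr13:34074471-34074500 for Tubb2a, chr13:34127474-34127503 for Tubb2b and chr17:35834985-35835014 for Tubb5.
Tubb3: GAcgaggaATCggaAgCCCaGgGGCCCAAG
Tubb2a: ttcgaggaggaGgagggTgaAgatgaggct
Tubb2b: ttcgaggaggaAgagggCgaGgatgaggct
Tubb5: GATTTCgGAgaggaggCAgaagaGgaggcC
Counted this way, Tubb3 differs from Tubb2a at 18 of these 30 bases, Tubb5 at 12 and Tubb2b at only 3. The windows of Tubb3, Tubb2a and Tubb5 end at coding bases 1350, 1335 and 1332, so these genes differ in coding length. The counts for Tubb3 and Tubb5 thus depend on this placing and are not counts of aligned differences. The stretch in which Sox4 and Sox11 are most alike is also shown, since it is where reads of these factors are hardest to assign; capitals mark the bases that differ. It is a window of 60 coding bases, on the minus strand of both genes, at chr13:28952749-28952808 in Sox4 and chr12:27342166-27342225 in Sox11.
Sox4: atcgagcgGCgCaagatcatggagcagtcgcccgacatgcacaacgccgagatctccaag
Sox11: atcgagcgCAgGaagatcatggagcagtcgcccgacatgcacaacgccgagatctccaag
The window differs at 3 bases, and the longest identical run between the aligned coding sequences was 48 bases.

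The first comparison set polysome against total mRNA. Averaged over the doses, 3 of the 10 genes were called higher in polysome mRNA (Stmn2, Stmn3, Tubb3), 6 were called lower (Sox4, Map2, Elavl3, Dcx, Elavl4, Tubb2a), and Sox11 was not called. A call needed an adjusted p under 0.05 and a fold above 1.2, by the quasi-likelihood F test of edgeR, its p adjusted over 14421 genes as Benjamini and Hochberg describe. In the same comparison 32.7% of all genes were called higher and 38.4% lower, and the median log2 ratio was -0.59 over the 10 genes, against -0.09 over all genes. The genes thus spread over much of the range of all mRNAs, from the percentile 8.36 (Sox4) to 87.1 (Stmn2) of the log2 ratio. Scaling by library totals alone, without TMM, moved the median of all genes by -0.09 to -0.12 at the 3 doses, and of the 10 genes only Sox11 in HF (-0.08 in place of 0.04) then changed sign. Here and below, log2 changes are given with their standard error.

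Among the stathmins, Stmn3 (chr2:181306459-181314500, minus strand, 5 exons) was on the high side at all doses. It had 17.8 and 15.5 CPM in LF polysome mRNA, 37.7 and 32.1 in MF, and 26.8 and 24 in HF, against 12.3 and 12.7 CPM in LF total mRNA, 13.9 and 12.6 in MF, and 12.7 and 14.5 in HF. Polysome and total libraries did not overlap at any dose, which held for 71.6% of all genes in LF, 86.2% in MF and 85.8% in HF and so is the usual outcome. The log2 ratio of Stmn3 was 0.41 ± 0.161 in LF (adjusted p = 0.0535 by edgeR, not called), 1.40 ± 0.162 in MF and 0.90 ± 0.161 in HF (called). Stmn2 (chr3:8509360-8561606, plus strand, 5 exons), the stathmin of growth cones, behaved differently across the doses. It had 5.17 and 4.32 CPM in LF polysome mRNA, 2.39 and 2.31 in MF, and 4.48 and 4.62 in HF, against 2.23 and 2.78 CPM in LF total mRNA, 1.9 and 2.41 in MF, and 1.1 and 1.58 in HF. Its fractions overlapped at MF only, where the log2 ratio was 0.12 ± 0.254. The ratio was 0.92 ± 0.242 in LF and 1.76 ± 0.258 in HF, both called. These values rest on 26 to 127 counts per library. Without the first or the second LF polysome library the LF ratio of Stmn2 was 0.83 or 1.05, called both times, and that of Stmn3 0.35 (not called) or 0.51 (called), in fits that called 66.7% and 62.7% of all genes in LF. The LF call of Stmn2 was lost without the first LF total library (0.77, adjusted p = 0.0804) and with the LF libraries alone (0.91, adjusted p = 0.0897).

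The β-tubulins differed from each other. Tubb3 (chr8:123411424-123422015, plus strand, 4 exons) had 31.6 and 21 CPM in LF polysome mRNA, 93.4 and 67.6 in MF, and 51.6 and 56 in HF. In total mRNA it had 27.9 and 30.3 CPM in LF, 33.2 and 29.3 in MF, and 28.5 and 33.2 in HF. The fractions overlapped in LF, with a log2 ratio of -0.15 ± 0.215, and were apart in MF (1.36 ± 0.217) and HF (0.80 ± 0.215), where Tubb3 was called higher on polysomes. The HF call was lost without the first HF total library (0.70, adjusted p = 0.0757) and without the second HF polysome library (0.75, adjusted p = 0.0542). Tubb2a (chr13:34074274-34078007, minus strand, 4 exons) had 116 and 69.3 CPM in LF polysome mRNA, 200 and 177 in MF, and 132 and 154 in HF, against 150 and 131 CPM in LF total mRNA, 165 and 173 in MF, and 194 and 192 in HF. Polysome libraries were below total libraries in LF and HF and slightly above in MF. Only the LF ratio was called (-0.60 ± 0.208, adjusted p = 0.0322 by edgeR). That call was lost when any 1 of the 6 total libraries or the second LF polysome library was left out (adjusted p between 0.0511 and 0.165), and with the LF libraries alone (0.198), and the averaged ratio of -0.29 ± 0.12 was close to the threshold (adjusted p = 0.0473). The call of the averaged ratio was lost with RLE size factors, with DESeq2, without the filter on low counts and without any 1 of the libraries other than the first LF polysome library. In LF, leaving out the first or the second polysome library gave -0.98 (called) or -0.27 (not called) for Tubb2a and -0.43 (called, lower) or 0.12 (not called) for Tubb3.

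The mRNAs of Map2 and Dcx, which encode microtubule-binding proteins, were low on polysomes. Map2 (chr1:66175273-66442583, plus strand), the protein of dendrites, had 58.3 and 110 CPM in LF polysome mRNA, 63.8 and 65.7 in MF, and 49.3 and 52.7 in HF, against 269 and 257 CPM in LF total mRNA, 235 and 238 in MF, and 248 and 256 in HF. The log2 ratio was -1.65 ± 0.23 in LF, -1.87 ± 0.231 in MF and -2.30 ± 0.235 in HF, called at all 3 doses. Its LF ratio was -1.22 without the first LF polysome library and -2.17 without the second, called both times. Dcx (chrX:143855842-143933311, minus strand) had 3.7 and 6.22 CPM in LF polysome mRNA, 6.61 and 6.05 in MF, and 2.42 and 3.09 in HF, against 14.3 and 15.1 CPM in LF total mRNA, 13.4 and 12.6 in MF, and 14.4 and 15.4 in HF. Every polysome library of Dcx was below every total library over the 3 doses, as the fractions did not overlap in 52.2% of all genes. Its log2 ratio was -1.57 ± 0.234 in LF, -1.04 ± 0.229 in MF and -2.43 ± 0.245 in HF, which in HF is a 5.4-fold lower polysome level. All 3 were called, and so was the LF ratio without the first (-1.19) or the second LF polysome library (-1.98).

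The RNA-binding Elavl3 (chr9:22015005-22052023, minus strand, 7 exons) had 3.01 and 1.38 CPM in LF polysome mRNA, 4.3 and 4.11 in MF, and 3.14 and 2.18 in HF, against 10.1 and 11.3 CPM in LF total mRNA, 10.3 and 9.49 in MF, and 10.9 and 9.49 in HF. The fractions did not overlap at any dose, as in most genes, and the log2 ratio was -2.28 ± 0.309 in LF, -1.24 ± 0.292 in MF and -1.93 ± 0.303 in HF, called at each dose and, in LF, without either polysome library (-2.90 and -1.83). Elavl4 (chr4:110203722-110351909, minus strand) had 0.244 and 0.648 CPM in LF polysome mRNA, 0.162 and 0.18 in MF, and 0.159 and 0.247 in HF, against 0.49 and 0.45 CPM in LF total mRNA, 0.325 and 0.636 in MF, and 0.338 and 0.558 in HF. It was called only when the doses were averaged (-0.89 ± 0.353, adjusted p = 0.0419 by edgeR), and that call was lost with RLE size factors, with DESeq2 and without the filter on low counts (adjusted p between 0.0569 and 0.113), and when any 1 of 9 of the 12 libraries was left out, the first LF polysome library (0.102) among them.

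The SoxC factors were split. Sox4 (chr13:28948919-28953713, minus strand, 1 exon) had the lowest averaged ratio of the 10 genes, -2.17 ± 0.115, a 4.51-fold lower level on polysomes. It had 51.2 and 58.8 CPM in LF polysome mRNA, 33.9 and 47.9 in MF, and 45.3 and 32 in HF, against 203 and 201 CPM in LF total mRNA, 205 and 198 in MF, and 191 and 201 in HF. Of its 4795 exon bases, 2616 are also exon of Gm26735, a lincRNA of the opposite strand, which had 2464 to 5214 counts in polysome and 2874 to 4379 counts in total libraries. The strand setting of the counting is not given in the sources used here, so the reads of Sox4 and Gm26735 may have been divided between them. With their counts added together the averaged ratio of Sox4 was -1.11 (adjusted p = 2.51e-06 by edgeR), a smaller difference in the same direction. Sox4 then no longer had the lowest ratio, since Map2 (-1.94), Elavl3 (-1.82) and Dcx (-1.68) were lower. This sum was chosen after the data were seen. The LF ratio of Sox4 was -1.73 without the first LF polysome library and -1.97 without the second, called both times. Sox11 (chr12:27334264-27342574, minus strand, 1 exon) had 136 and 220 CPM in LF polysome mRNA, 135 and 152 in MF, and 134 and 137 in HF, against 144 and 136 CPM in LF total mRNA, 123 and 127 in MF, and 133 and 131 in HF. Its log2 ratio was 0.35 ± 0.188 in LF, 0.20 ± 0.188 in MF and 0.04 ± 0.188 in HF, and none of these passed the test. In LF it was 0.70 without the first LF polysome library, called higher, and -0.03 without the second.

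**Figure D3:**
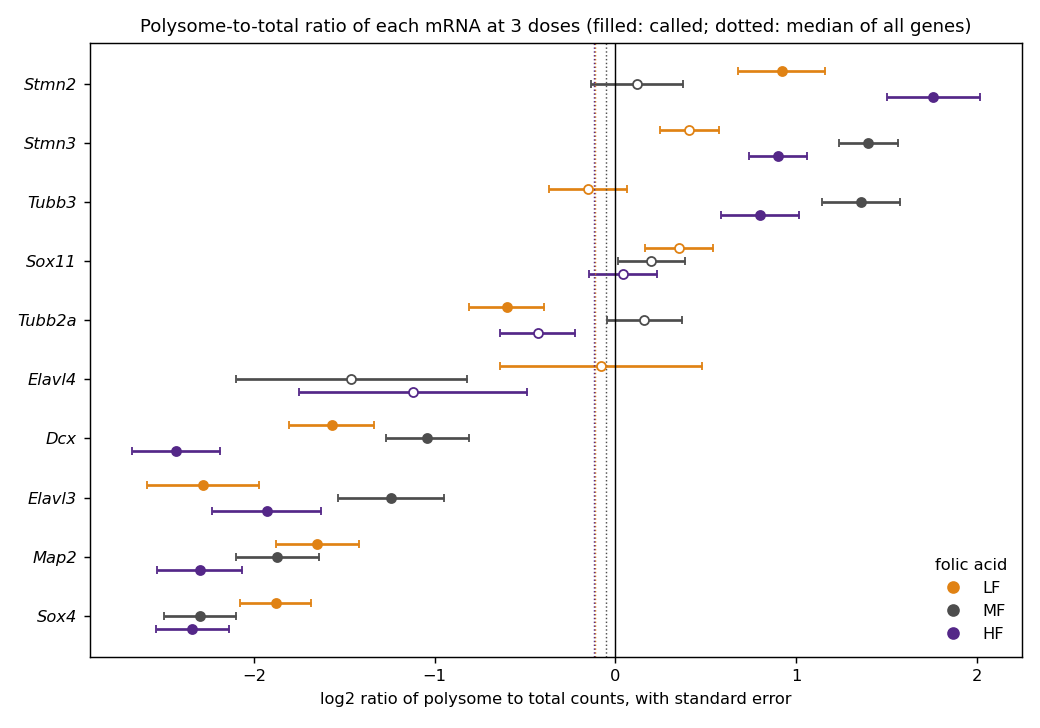
Log2 ratio of polysome to total counts of each gene at LF, MF and HF, with standard errors; filled points were called and open points were not, and dotted lines mark the median of all genes at each dose. Dcx, Elavl3, Map2 and Sox4 lie below -1 at every dose, and Stmn2 spreads from 0.12 in MF to 1.76 in HF.

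By dose, 1 of the 10 genes was called higher and 5 lower on polysomes in LF (Stmn2 higher; Dcx, Tubb2a, Map2, Sox4 and Elavl3 lower), where 25% of all genes were called higher and 28.5% lower. In MF 2 were called higher and 4 lower, beside 26% and 29.3% of all genes, and in HF 3 were called higher and 4 lower, beside 25.7% and 30.7%. Dcx, Map2, Sox4 and Elavl3 were the 4 genes called lower at every dose.

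The length of the transcripts is a feature the choice of genes did not use. Across all 14421 genes tested, a longer transcript went with a lower polysome ratio (Spearman's rho = -0.41 across genes, which share the libraries and are not independent), and the median log2 ratio was 0.48 over the 3607 genes with the shortest transcripts (up to 1629 bases) and -0.72 over the 3604 with the longest (3855 bases or more). Over the 10 genes rho was -0.53. For the length of the coding part rho was -0.45 over 12982 genes and -0.44 over the 10. For the length of the 3′ UTR it was -0.27 and -0.01, so the values do not single out the whole length. Stmn3 and Tubb3 have transcripts of 1136 and 1868 bases and high ratios, and Sox4, Elavl3 and Dcx have transcripts of 4795, 5027 and, at the median of the total libraries, 8027 bases and low ratios. Other genes departed from this order. Tubb2a, with 1584 bases, was among the shortest transcripts, and its averaged log2 ratio was -0.29. Sox11 has a single transcript of 8311 bases, with 6957 bases of 3′ UTR. Its averaged log2 ratio was 0.20 ± 0.108 and was not called. For Map2, whose short and long protein forms come from alternative splicing, the mean transcript length that RSEM assigned was 4998 to 5134 bases in polysome libraries and 3530 to 3753 bases in total libraries. These ranges did not overlap, and the ratio of their medians, 1.4, was reached or exceeded by few genes, since 98.5% of all genes had a ratio at or below it. The low polysome ratio of Map2 is thus a sum over transcripts whose mix, as RSEM estimated it, differed between the fractions. For Dcx the assigned length was 8596 to 9074 bases in polysome and 6695 to 8741 bases in total libraries.

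The second comparison asked whether the dose of folic acid changed the total level of these mRNAs. None of the 10 genes was called in LF or in HF total mRNA against MF by edgeR's quasi-likelihood F test, where 0.00719% of all genes were called in LF and 0.0863% in HF. DESeq2, run on the same libraries, also called 0 of the 10, beside 0.0144% and 0.165% of all genes. At an unadjusted p under 0.05, 3 of the 10 passed in LF (Tubb2a, Map2 and Sox11) and 2 in HF (Stmn2 and Tubb2a), beside 6.27% and 6.98% of all genes. Tubb2a had 150 and 131 CPM in LF, 165 and 173 CPM in MF, and 194 and 192 CPM in HF total mRNA, so that its 3 groups did not overlap and lay in the order of the doses. Duplicates of LF and MF did not overlap in 35.2% of all genes, and those of HF and MF in 38.2%. The share of all genes whose 3 groups lay in the order of the doses is not given here. Its log2 change was -0.27 ± 0.0557 in LF (adjusted p = 0.221 by edgeR) and 0.18 ± 0.055 in HF (adjusted p = 0.335). The LF change was called without the filter on low counts (adjusted p = 1.94e-04, beside 0.24% of all genes called) and when the first LF total library was left out (-0.37, adjusted p = 0.00242, beside 0.492%). Stmn2, with 26 and 34 counts in HF against 41 and 53 in MF, had a log2 change of -0.70 ± 0.299 (adjusted p = 0.652). All other changes in total mRNA were between -0.12 and 0.21 on the log2 scale.

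The third comparison set LF against MF in polysome mRNA, where 9 of the 10 genes could be tested, since Elavl4 did not pass the filter on low counts. The widest differences below MF were those of Tubb3, Stmn3, Tubb2a and Elavl3. Tubb3 had 31.6 and 21 CPM in LF and 93.4 and 67.6 CPM in MF, a log2 change of -1.62 ± 0.28, or 3.08-fold lower. Stmn3, with 17.8 and 15.5 CPM in LF and 37.7 and 32.1 CPM in MF, had a log2 change of -1.08 ± 0.237, and Tubb2a, with 116 and 69.3 CPM in LF and 200 and 177 CPM in MF, one of -1.03 ± 0.269. Stmn2 had a change of the opposite sign, with 5.17 and 4.32 CPM in LF and 2.39 and 2.31 CPM in MF, 1.00 ± 0.295 on the log2 scale. The LF libraries did not overlap the MF libraries in these 4 genes, nor in Elavl3 and Sox4, and they did not in 50.1% of all genes. After adjustment over 13433 genes none of the 9 was called (adjusted p = 0.116, 0.137, 0.175 and 0.192 by edgeR for Tubb3, Stmn3, Tubb2a and Stmn2), beside 0.0223% of all genes. At an unadjusted p under 0.05 these last 4 of the 9 passed, beside 17.3% of all genes.

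The calls in LF polysome mRNA depended on the tool and on the libraries in the fit. DESeq2 called 3 of the 9, Tubb3 (adjusted p = 2.93e-05), Stmn3 (0.00343) and Tubb2a (0.0214), all lower in LF, beside 4.97% of all genes. Without the second LF polysome library, edgeR called 4 (Tubb3, Stmn3 and Tubb2a lower, by -1.35, -0.98 and -0.70, and Stmn2 higher, by 1.13), beside 6.83% of all genes, and the lone LF library is then assumed to vary like the other groups. Without the first LF library it called 7 of the 9 (Tubb3, Elavl3, Tubb2a and Stmn3 lower, by -1.93, -1.59, -1.44 and -1.17, and Stmn2, Map2 and Sox11 higher, by 0.88, 0.76 and 0.62), but then also 50.5% of all genes. Tubb3, Stmn3, Tubb2a and Stmn2 were called in both of these fits. Without the filter on low counts, with both LF libraries, Tubb3, Stmn3 and Tubb2a were called, beside 2.71% of all genes. Elavl3, with 3.01 and 1.38 CPM in LF and 4.3 and 4.11 CPM in MF, had a log2 change of -0.94 ± 0.428 (adjusted p = 0.305). Dcx (-0.37 ± 0.338), Map2 (0.36 ± 0.293), Sox4 (0.41 ± 0.273) and Sox11 (0.30 ± 0.244) had changes within about 1.5 standard errors of 0. Those of Map2 and Sox11 turned to -0.15 and -0.08 without the second LF library, in which both genes were higher than in any other polysome library.

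**Figure D4:**
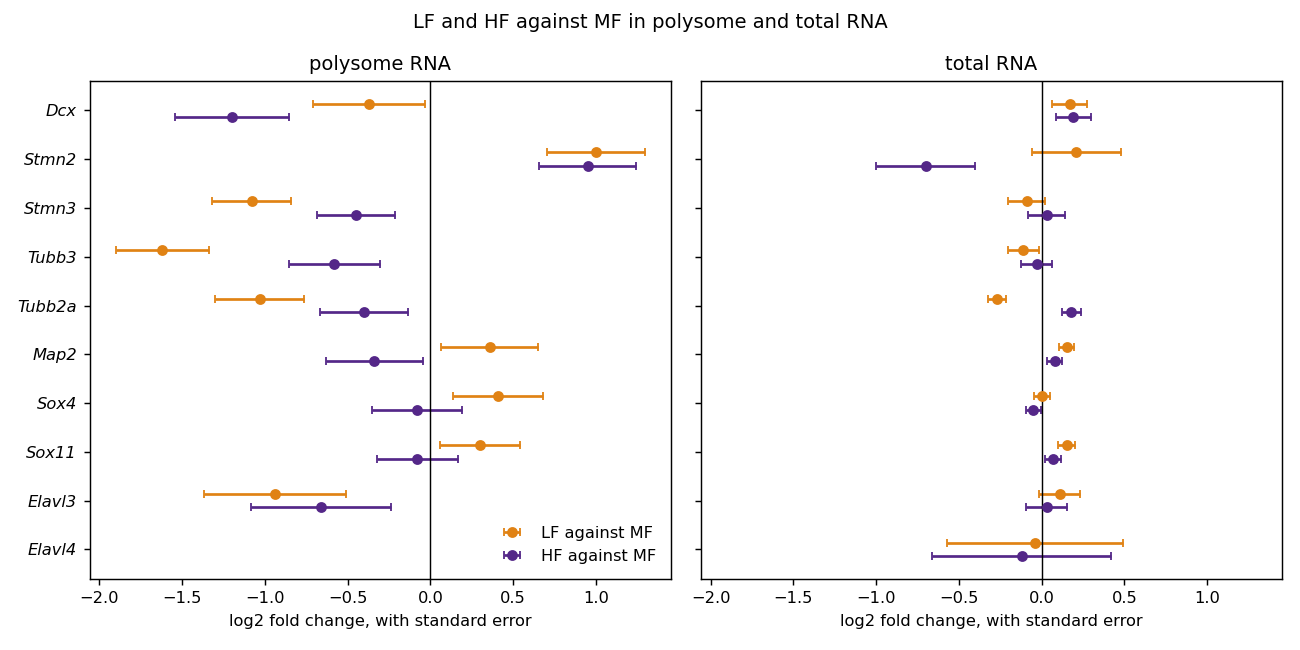
Log2 fold change, with standard error, of each gene in LF (orange) and HF (purple) against MF, in polysome mRNA (left) and total mRNA (right); Elavl4 was not tested in polysome mRNA. Changes in total mRNA lie close to 0 except for Stmn2 in HF (-0.70), while in polysome mRNA Tubb3 in LF (-1.62) and Dcx in HF (-1.20) lie farthest below 0.

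The fourth comparison set HF against MF in polysome mRNA. Here 8 of the 9 tested genes had a level below MF and Stmn2 one above it, with a median log2 change of -0.40, against 0.00 over all genes. Dcx had 2.42 and 3.09 CPM in HF and 6.61 and 6.05 CPM in MF, a log2 change of -1.20 ± 0.346, or 2.29-fold lower. Stmn2 had 4.48 and 4.62 CPM in HF and 2.39 and 2.31 CPM in MF, a change of 0.95 ± 0.295. Tubb3 had 51.6 and 56 CPM in HF and 93.4 and 67.6 CPM in MF, a change of -0.58 ± 0.273. The libraries of HF and MF did not overlap for these 3 genes, nor for Stmn3 (-0.45 ± 0.234), Tubb2a (-0.40 ± 0.266), Map2 (-0.34 ± 0.293) and Elavl3 (-0.66 ± 0.423), and they did for Sox4 and Sox11 (-0.08 each). They did not overlap in 54.4% of all genes.

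In the fit of all 6 polysome libraries none of the 9 was called in HF (adjusted p of 0.948 or more by edgeR), as 0% of all genes were, and DESeq2 called 0 of the 9, beside 0.179%. At an unadjusted p under 0.05 Dcx and Stmn2 passed, beside 3.37% of all genes. Fitted on the 4 HF and MF libraries alone, edgeR called Dcx (adjusted p = 0.0159), Stmn2 (0.0447) and Tubb3 (0.0415), beside 5.34% of all genes. The same 3 genes were called when either LF polysome library was left out, beside 5.12% of all genes without the first and 5.68% without the second. The LF and HF comparisons share the MF libraries, so their changes are not independent of each other. The summed level of 10 mesenchymal and mural cell markers moved with HF, at 792 to 928 TPM in HF polysome mRNA, against 527 to 557 TPM in MF, and at 108 to 127 TPM in HF total mRNA, against 152 to 168 TPM in MF, with none of the 10 markers at 0. Acta2, Tagln and Myl9 had the largest levels of these markers in polysome mRNA (means of 276, 191 and 122 TPM, n = 6 libraries). Col1a1 did not exceed 0.62 TPM there, Cspg4 0.35 TPM and Rgs5 0.08 TPM, so the sum speaks mainly for a few of them. The part of this sum in the HF values was not tested.

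The last comparison, of TE, set the change on polysomes against the change in total mRNA in 1 model of all 12 libraries. In LF against MF the log2 change in TE was -1.51 ± 0.305 for Tubb3 (adjusted p = 0.0861 by edgeR), -0.99 ± 0.227 for Stmn3 (0.114), -1.04 ± 0.42 for Elavl3 (0.278), -0.76 ± 0.294 for Tubb2a (0.263) and 0.80 ± 0.351 for Stmn2 (0.308). These 5 of the 10 genes passed an unadjusted p under 0.05, beside 15.8% of all genes, and by edgeR 0 were called, beside 0.236% of all genes. DESeq2 called Tubb3 (1.18e-04) and Stmn3 (0.00257), both lower in LF, beside 4.49% of all genes. Without the second LF polysome library edgeR called 3 (Tubb3, Stmn3 and Dcx, all lower), beside 6.76% of all genes, and without the first 6 (Tubb3, Elavl3, Tubb2a and Stmn3 lower, Map2 and Sox11 higher), beside 46.2%. Tubb3 and Stmn3 were called in both of these fits. Without the filter on low counts only Tubb3 was called, beside 1.05% of all genes. The TE changes of Map2 (0.22 ± 0.317), Sox4 (0.43 ± 0.27), Sox11 (0.15 ± 0.265), Dcx (-0.53 ± 0.324) and Elavl4 (1.38 ± 0.849) did not pass, and those of Map2 and Sox11 were -0.30 and -0.23 without the second LF polysome library.

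In HF against MF, Stmn2 and Dcx had the widest differences in TE, of opposite sign. Stmn2 was higher on polysomes and lower in total mRNA, and the total level of Dcx had a log2 change of 0.19 ± 0.106. The log2 change in TE was 1.64 ± 0.362 for Stmn2 and -1.39 ± 0.331 for Dcx. Both passed an unadjusted p under 0.05, beside 4.15% of all genes, but none of the 10 genes was called by edgeR after adjustment (0.608 and 0.774 for these), as 0% of all genes were. DESeq2 also called 0 of the 10, beside 0.208% of all genes. Fitted on the 8 HF and MF libraries alone, edgeR called both, Dcx at an adjusted p of 0.016 and Stmn2 at 0.0436, beside 1.52% of all genes. Without the first or the second LF polysome library it called these and also Tubb2a and Map2, both lower, beside 2.88% and 2.99% of all genes. The other TE changes in HF were -0.69 ± 0.416 for Elavl3, -0.56 ± 0.302 for Tubb3, -0.50 ± 0.226 for Stmn3, -0.16 ± 0.265 for Sox11, -0.04 ± 0.271 for Sox4 and 0.34 ± 0.911 for Elavl4, so that 8 of the 10 were negative.

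Other genes of the neuronal programme were counted in the same fits, where 32.7% of all genes were called higher and 38.4% lower on polysomes over the doses. Of 18 tested of 30 proneural and neuroblast regulators, 2 were called higher and 11 lower on polysomes over the doses, with a median log2 ratio of -0.67. The lower ones included Myt1 (-1.82 ± 0.101), Dlx1 (-0.92 ± 0.0715), Prox1 (-1.68 ± 0.138), Id4 (-1.03 ± 0.0895) and Dlx2 (-1.15 ± 0.111), all but Id4 transcription factors of the neuronal lineage, and Id4 an inhibitor of proneural factors. Of 31 tested of 34 genes of migration and neurite growth, 10 were called higher and 8 lower, with a median of -0.02. Fez1 (1.83 ± 0.0674), an adaptor of axonal transport, Cdk5 (0.95 ± 0.0753), the kinase of migrating neurons, and its partner Ndel1 (0.73 ± 0.0704) were higher on polysomes, and the receptor Robo1 (-1.43 ± 0.101) and the adhesion protein Nrxn3 (-1.54 ± 0.204) lower. Of 12 tested of 18 genes of mature neurons 1 was called higher and 5 lower, with Gad2 (-2.01 ± 0.124), an enzyme of GABA synthesis, and Celf4 (-1.26 ± 0.162) the lower ones with the smallest p. Of 17 tested of 19 relatives of the 10 genes 3 were called higher and 6 lower. Among them Map1a (-2.37 ± 0.151), Map1b (-1.83 ± 0.155), Dclk2 (-1.98 ± 0.168) and Dclk1 (-1.35 ± 0.118) were low on polysomes, as Map2 and Dcx were. Elavl1 (0.84 ± 0.0731) was high. Not all relatives of Map2 were low. Map4 had a median of 369 CPM in polysome and 370 CPM in total mRNA (n = 6 libraries each). For Mapt these medians were 1.97 and 1.89 CPM, and for Map6 2.47 and 2.99 CPM.

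No gene of these 4 lists was called by edgeR for a change with dose. At an unadjusted p under 0.05, 11 of 74 passed in LF and 11 of 74 in HF polysome mRNA (17.3% and 3.37% of all genes), 10 and 9 of 77 in total mRNA (6.27% and 6.98%), and 10 and 12 of 78 in TE (15.8% and 4.15%). DESeq2 called 5 of 74 in LF polysome mRNA (Tubb2b, Tubb6, Id4, Cd24a and Basp1), beside 4.97% of all genes. For TE it called 3 of 78 in LF (Tubb6, Id4 and Basp1), beside 4.49%, and 2 of 78 in HF (Dlx1 and Fez1), beside 0.208%. It called 0 in the other 3 comparisons. In HF against MF the TE change was negative for 13 of 18 regulators (median -0.72), for 10 of 12 genes of mature neurons (median -0.52), for 20 of 31 genes of migration and neurite growth (median -0.09) and for 14 of 17 relatives (median -0.32), against a median of 0.00 over all genes. The widest changes in these lists were those of Dlx5 (-2.60 ± 0.918) and Sp9 (-1.92 ± 0.99), factors of olfactory interneurons with only 26 and 20 counts in all 6 polysome libraries together, Gad2 (-1.41 ± 0.303) and Grin1 (-1.22 ± 0.486), Dab1 (0.93 ± 0.389) and Robo2 (0.90 ± 0.418), and Elavl2 (-0.86 ± 0.826) and Tubb4a (-0.71 ± 0.509), none of them called (adjusted p between 0.608 and 0.982). In LF against MF the TE medians of the same lists were 0.03, -0.22, 0.15 and -0.05, against 0.02 over all genes. The β-tubulins Tubb2b (-0.92 ± 0.258, adjusted p = 0.178) and Tubb6 (-0.80 ± 0.209, 0.175) had the widest LF changes of the relatives in polysome mRNA, beside Tubb3 and Tubb2a, and were not called.

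Lists of other cell types served to set these values beside the make-up of the cultures. None of their genes was called for a change with dose by edgeR in any of the 6 dose comparisons. At an unadjusted p under 0.05, 14 of 50 passed in LF and 6 of 50 in HF polysome mRNA, 7 and 18 of 51 in total mRNA, and 11 and 11 of 51 in TE, where the shares of all genes were again 17.3% and 3.37%, 6.27% and 6.98%, and 15.8% and 4.15%. DESeq2 called 3 of 50 in LF polysome mRNA (Ccna2, Lum and Dcn), beside 4.97% of all genes. In HF total mRNA it called 3 of 51 (Fabp7, Acta2 and Pdgfrb), beside 0.165%. For TE it called 4 of 51 in LF (Fabp7, Ccna2, Col3a1 and Lum), beside 4.49%. In HF it called 3 of 51 for TE (Acta2, Tagln and Lum), beside 0.208%, and it called 0 in the remaining comparisons. In HF against MF the TE change was negative for 16 of 19 genes of neural stem cells and astrocytes (median -0.24), 9 of 9 of cycling progenitors (-0.30), 5 of 7 of the oligodendrocyte lineage (-0.38) and 3 of 3 of ependyma (-0.70), and positive for 8 of 9 mesenchymal and mural genes (0.82) and 3 of 4 endothelial genes (0.62). With 2 microglial genes tested the median was -0.06. Of the 18 genes of mature neurons, Vamp2 had the largest share in polysome mRNA, with 18.3 to 50.4 TPM over the 6 libraries. The summed TPM of the 18 genes was 42.8 to 67.4 in LF, 45.5 to 51.4 in MF and 33.1 to 45.3 in HF polysome mRNA. That of the 10 genes followed here was 202 to 247 in LF, 366 to 399 in MF and 278 to 299 in HF polysome mRNA, in which Tubb2a has the largest share.

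By pattern, the genes most like the mean of the 10 standardised profiles, over the 12 libraries with log2 CPM centred within each fraction, were Gad2 (Pearson's r = 0.84), Pak3 (0.84), Sptbn1 (0.83), Ddo (0.83) and Gdap1 (0.82), out of 12482 genes with a mean of at least 1 CPM. The libraries share depth and the spread of the second LF polysome library, so these values describe likeness only. The 10 genes differed in pattern among themselves, with r = -0.79 between Stmn2 and Stmn3 and -0.89 between Tubb2a and Elavl4 over the 6 polysome libraries, so their mean profile is not one that all of them share.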

How the data were processed

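Total and polysome mRNA, poly(A)-selected, gave 12 libraries. The authors trimmed the reads, aligned them to mm10 with Bowtie2 2.2.9 and counted with RSEM 1.3.0 (strand setting not stated in the sources used). The deposited tables hold expected counts, which are estimates, TPM and, as another value, a mean transcript length in bases.

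Expected counts were rounded and tested with edgeR 4.0.16 in R 4.3.3 (TMM, filterByExpr, robust quasi-likelihood F test, Benjamini-Hochberg adjustment) in 3 fits over all doses: total libraries (13912 genes, 3 residual degrees of freedom), polysome libraries (13433, 3) and all libraries (14421, 6; TE as an interaction). The study used Xtail for TE, not run here. TPM served for levels only. Standard errors are the log2 change over the root of F. GENCODE M21 matched 42462 of 43432 identifiers. Alternatives were RLE size factors, library totals, no filter, DESeq2 1.42.0, adjusted p alone, the compared libraries alone, the replicate number as a block and each library left out. Scripts were tested on simulated data. The simulated libraries had no outlier, and those of the polysome and all-library fits varied less than the real ones (coefficients of variation of 0.231 and 0.164). The simulation therefore does not show how well the polysome and TE comparisons perform here.

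The 10 genes and the lists were chosen with earlier results of these data known; the sum of Sox4 and Gm26735 was added after seeing the data. The text names all 10 genes, and of the other lists the called genes with the smallest p (at most 5) or, with none called, the 2 with the widest change. Genes that DESeq2 called are named beside their counts, and were chosen after seeing the data.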

Additional observations from a re-analysis of the deposited data

How the results depend on the processing

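Of 772 values of single genes under settings other than a left-out library, 738 kept their direction and side of the threshold, 21 newly passed it, 8 lost it and 5 changed sign; with 1 library left out these were 849, 42, 30 and 27 of 948. The number of the 10 genes called, 0 in each dose comparison, became 1 (total mRNA in LF), 3 (polysome mRNA in LF) and 1 (TE in LF) without the filter on low counts, 3 (polysome mRNA in LF) and 2 (TE in LF) with DESeq2, and 3 (polysome mRNA in HF) and 2 (TE in HF) with the compared libraries alone. DESeq2 called 211 of all genes higher and 436 lower for TE in LF, and edgeR 5 and 29. For polysome against total mRNA, edgeR with all libraries called 53.6% of all genes in LF, 55.2% in MF and 56.4% in HF. Over the doses it called 71%. These shares rose without the first LF polysome library, the fit in which the highest counts of the 10 genes in LF and HF were reached. Those highest counts are thus not particular to the 10 genes. With 1 library left out the counts were 0 to 1 in LF and 0 to 0 in HF total mRNA, 0 to 7 in LF and 0 to 3 in HF polysome mRNA, 0 to 6 in LF and 0 to 4 in HF for TE, and, for polysome against total mRNA, 4 to 8 in LF (4 without the first LF total library), 6 to 7 in MF, 6 to 8 in HF and 7 to 9 over the doses. The 7 and the 6 came from fits without the first LF polysome library that called 50.5% and 46.2% of all genes, and the 4 and the 8 from fits that called 38% and 66.7%.

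The TE change of Sox4 in HF was 0.01 with RLE size factors and with DESeq2, and the HF polysome ratio of Sox11 was -0.08 with library totals alone. With the counts of Gm26735 added, the log2 change of Sox4 was 0.10 in LF and 0.07 in HF total mRNA. Log2 changes whose sign turned with 1 library left out ranged, in LF total mRNA, from -0.04 to 0.03 (Sox4) and -0.43 to 0.51 (Elavl4), and in HF total mRNA from -0.07 to 0.14 (Stmn3), -0.14 to 0.09 (Tubb3), -0.06 to 0.12 (Elavl3) and -0.51 to 0.43 (Elavl4). In polysome mRNA they ranged from -0.15 to 0.76 (Map2) and -0.08 to 0.62 (Sox11) in LF, and from -0.36 to 0.19 (Sox4) and -0.16 to 0.01 (Sox11) in HF. For TE they ranged from -0.30 to 0.60 (Map2) and -0.23 to 0.45 (Sox11) in LF, and from -0.31 to 0.23 (Sox4) and -0.21 to 0.74 (Elavl4) in HF. For polysome against total mRNA they ranged from -0.43 to 0.12 (Tubb3), -0.03 to 0.70 (Sox11) and -0.92 to 0.51 (Elavl4) in LF, and from -0.03 to 0.31 (Stmn2) in MF. The cause was not tested.

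With the replicate number as a block, 1 gene was called in LF total mRNA (Tubb2a, beside 0.259% of all genes) and 1 in LF polysome mRNA (Tubb3, beside 1.72%), and no other call with dose was made. The libraries share only a number: deviations of same-numbered libraries correlated between -0.23 and 0.21, so the numbers were not used to pair them. Elavl4, Stmn2, Dcx, Elavl3, Dlx5 and Sp9 rest on few counts, which limits what their values can show.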
